A study of Mus musculus with 6 samples.

Results

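The genes of glycolysis, lactate handling and glycogen were followed in muscle of mice with C26 tumors. The set was given as a list of 43 gene symbols, and 38 of them had a named probe set among the 21212 probe sets of the table. Gpi1, Pfkfb1, Gapdh, Pgam1 and Eno1 were not analysed here. All animals were male CDF1 mice aged 8 weeks when bought. Control mice were injected in both flanks with PBS and matrigel alone, and C26 mice with C26 colon adenocarcinoma cells in the same carrier. Gastrocnemius and plantaris muscle was taken 25 days later from 3 control and 4 C26 mice, and RNA of 2 to 3 muscles of a group was combined into each of 3 control pools (1, 2 and 3) and 3 C26 pools (1, 3 and 4). The pools of a group may share a mouse, so each p-value measures only the spread between pools.

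Glycolysis splits glucose into pyruvate in the cytosol, and fast muscle fibers use it to make ATP quickly and export the lactate that results. Muscle also stores glucose as glycogen, which phosphorylase kinase and glycogen phosphorylase break down when the fiber contracts. Several steps exist as isozymes, with a form typical of adult muscle fibers and others that are more common in other tissues.

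Each pool was measured on 1 Affymetrix Mouse Gene 1.0 ST array. Values are log2 RMA values, so that a difference of 1 is a doubling, and a probe set's level cannot be set against that of another gene. The words rose and fell are kept for genes to which limma gave an adjusted p of at most 0.05, over all probe sets, and a fold change of 1.5 or more (0.585 on the log2 scale). Olfactory and vomeronasal receptor probe sets had a level of 3.82 (log2) at their 95th percentile, and this was taken as the background. Arrays of a group correlated at 0.994 to 0.996 and arrays of different groups at 0.976 to 0.981. Of 8 general muscle fiber markers, 8 lay above the background in both groups, and Mylpf, a myosin light chain gene, was the 1 that fell (−0.70). With no minimum fold 3 of the 8 were lower, the others being Pvalb (−0.51), the calcium buffer of fast fibers, and Mb (−0.47), the myoglobin gene. Their summed linear level was 44132 to 45026 in control and 38882 to 40614 in C26 pools. Of 6 fibroblast markers 3 fell, the collagen genes Col1a1 (−2.61) and Col3a1 (−1.17) and Dpt (−0.79). With no minimum fold Lum was also lower (−0.46) and Pdgfra was higher (0.50), and Dcn did not pass (0.03). The summed linear level of the 6 was 5399 to 5984 in control and 3052 to 3542 in C26 pools. Such sums weigh most the probe sets with the highest levels, so they do not measure the number of cells. Here these were Col1a1, with means of 11.32 in control and 8.71 in C26 pools, and Dcn, with 11.02 and 11.05. Of 7 endothelial markers 1 rose and 1 fell.

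Of the 38 genes, 10 fell and 4 rose in C26 muscle, and 24 did not pass. The share that fell was 26.3%, beside 4.95% of all probe sets, and the share that rose was 10.5%, beside 5.94%. With no minimum fold, 17 of the genes (44.7%) were lower and 7 (18.4%) higher at an adjusted p of at most 0.05, beside 15.8% and 14.3% of all probe sets. The 38 genes had a median log2 fold change of −0.18, and all probe sets one of −0.05. For 30 of the 38 genes (78.9%) every C26 pool lay on the same side of every control pool, and this held for 43.9% of all probe sets. In whole muscle, fewer cells of a type and less RNA per cell cannot be told apart. The 14 genes that passed lay above the background in both groups, and the pools did not overlap for any of them.

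**Figure D1:**
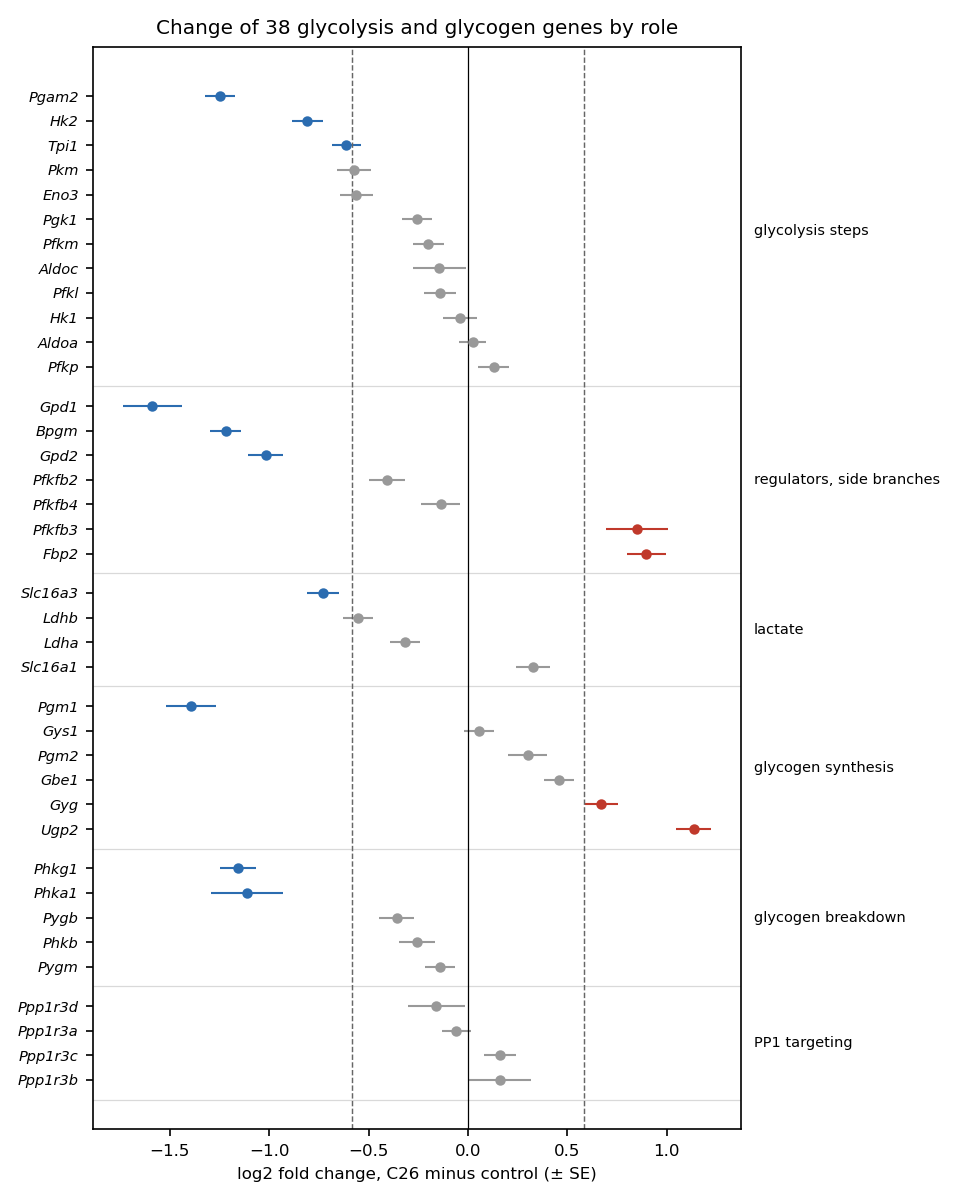
Log2 fold change (C26 minus control, horizontal axis, bars show SE) of the 38 genes, sorted by role, with genes that fell in blue, genes that rose in red and the others in grey. The dashed lines mark a change of 1.5-fold, and Gpd1 (−1.59) and Ugp2 (1.14) lie farthest out on either side.

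Among the enzymes of the glycolytic steps, the muscle phosphoglycerate mutase, hexokinase 2 and triosephosphate isomerase genes fell, and none rose. Of 16 listed step genes 12 were measured, of which 3 fell and 9 did not pass. Their log2 fold changes had a median of −0.23. With no minimum fold, 6 of the 12 were lower and 0 were higher. Pgam2, which encodes the muscle form of phosphoglycerate mutase in the lower part of the pathway, had log2 values of 11.69, 11.66 and 11.60 in control pools 1, 2 and 3, and of 10.46, 10.42 and 10.32 in C26 pools 1, 3 and 4. The 3 C26 pools lay close together and well below each control pool. This was a fall of 2.38-fold (log2 fold change −1.25, SE 0.08, adjusted p = 1.45e-05 from limma). Hk2, the insulin-regulated hexokinase that traps glucose in the fiber, was at 9.58, 9.61 and 9.62 in the control pools and at 8.76, 8.91 and 8.72 in the C26 pools. Its log2 fold change was −0.81 (SE 0.08, adjusted p = 0.000131). Tpi1, which interconverts the triose phosphates, had values of 11.94, 11.96 and 11.92 against 11.32, 11.26 and 11.39. The fall of Tpi1 was small, with a log2 change of −0.61 (SE 0.07), just past the 1.5-fold minimum. It did not pass with median centring (−0.55), with cyclic loess (−0.58) or without C26 replicate 3 (−0.58).

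Enolase and pyruvate kinase, which follow phosphoglycerate mutase, were lower by slightly less than 1.5-fold. Eno3, the muscle enolase gene, had a log2 change of −0.56 (SE 0.08, adjusted p = 0.00118), with control pools from 11.87 to 11.92 and C26 pools from 11.26 to 11.47. Pkm, the pyruvate kinase gene, was at 11.77 to 11.90 in control and 11.12 to 11.36 in C26 muscle (log2 fold change −0.57, SE 0.09, adjusted p = 0.00134). Pgk1, the phosphoglycerate kinase gene, differed by −0.25 (SE 0.08, adjusted p = 0.0322). Without C26 replicate 1, Eno3 (−0.63) and Pkm (−0.63) passed both thresholds, and Pkm also did so without control replicate 2 (−0.60) or control replicate 3 (−0.59).

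The genes of the steps between hexokinase and triosephosphate isomerase did not pass with or without the fold minimum. Pfkm, the muscle phosphofructokinase that commits sugar to glycolysis, had values of 12.23 to 12.25 in control and 11.94 to 12.09 in C26 muscle, and a log2 change of −0.20 (SE 0.08, adjusted p = 0.0852). Aldoa, the muscle aldolase gene, was at 12.69 to 12.70 in control and 12.71 to 12.73 in C26 muscle, a difference of 0.02 (SE 0.07). The means of Pfkm, Aldoa, Pygm and Ldha over the 6 arrays were above 12, near the highest mean of any probe set (13.03). Pfkl, Pfkp, Hk1 and Aldoc, the isozymes less typical of muscle, had log2 fold changes of −0.14, 0.13, −0.04 and −0.14. Aldoc lay close to the background, with means of 3.96 in control and 3.82 in C26 pools, so little can be read from its change.

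Genes beside the main line of glycolysis held the largest fall of the whole set, together with 2 of its 4 rises. Of 7 measured regulators and side branch genes, 3 fell, 2 rose and 2 did not pass. Gpd1, the cytosolic glycerol phosphate dehydrogenase, and Gpd2, its mitochondrial partner, form a shuttle that carries electrons from glycolysis to the respiratory chain. Gpd1 had log2 values of 10.46, 10.46 and 10.40 in the control pools and 9.23, 8.64 and 8.68 in the C26 pools. C26 pool 1 lay above the other C26 pools but more than 1 log2 unit below every control pool. The log2 fold change was −1.59 (SE 0.15, adjusted p = 0.000106), a fall of 3.01-fold. Gpd2 was at 9.41, 9.38 and 9.38 against 8.52, 8.36 and 8.24, so that both arms of the shuttle were lower, with −1.02 (SE 0.09) for Gpd2. Gpd1 is also expressed in fat cells, and 3 of 5 measured fat cell markers fell, led by Plin1 (−1.51, SE 0.12), the perilipin gene of lipid droplets. Lep (−0.63), the leptin gene, and Adipoq (−0.59) also fell, whereas Fabp4 (−0.06) and Retn (−0.21) did not pass with or without the fold minimum. The summed linear level of the 5 markers was 706 to 769 in control and 621 to 704 in C26 pools. Fabp4, with means of 9.17 in control and 9.11 in C26 pools, dominated this sum. Lep was the marker that lay under the background in C26 muscle. The part of fat cells in the fall of Gpd1 was not tested.

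Bpgm, which diverts a glycolytic intermediate into bisphosphoglycerate, fell by 2.33-fold, from 7.24, 7.34 and 7.28 in the control pools to 6.07, 5.98 and 6.15 in the C26 pools (log2 fold change −1.22, SE 0.08, adjusted p = 1.7e-05). Red blood cells are rich in this enzyme. Of 3 measured red blood cell markers 2 rose and 1 did not pass. The summed linear level of these markers was 188 to 234 in control and 336 to 489 in C26 pools. Alas2, which starts heme synthesis in red cell precursors, rose by 1.20 (SE 0.17) and Slc4a1, the anion exchanger of the red cell membrane, by 0.60 (SE 0.08), while Epb42, a membrane skeleton gene, differed by 0.21 and lay under the background in control muscle. The part of red blood cells in the fall of Bpgm was not tested.

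Fbp2 and Pfkfb3 rose. Fbp2, the muscle fructose bisphosphatase that runs the phosphofructokinase step backward, had log2 values of 8.27, 8.25 and 8.41 in control pools and 9.04, 9.25 and 9.34 in C26 pools, a rise of 1.86-fold (log2 fold change 0.90, SE 0.10, adjusted p = 0.00024). Pfkfb3 encodes a kinase that makes the sugar bisphosphate which activates phosphofructokinase. Its values were 9.90, 9.74 and 9.61 against 10.97, 10.38 and 10.44, with C26 pool 1 well above the other C26 pools. The log2 fold change of Pfkfb3 was 0.85 (SE 0.16, adjusted p = 0.00369), and by the methods' t-test the gene did not pass. Its relatives did not rise, since Pfkfb2 was lower by less than 1.5-fold (−0.41, SE 0.09, adjusted p = 0.00933) and Pfkfb4 differed by −0.14 (SE 0.10, adjusted p = 0.347). White blood cells also use Pfkfb3, and 6 of 7 neutrophil and 5 of 8 macrophage markers rose, with summed linear levels of 65.6 to 70.0 in control against 198 to 241 in C26 pools for neutrophil markers and of 747 to 826 against 1227 to 1273 for macrophage markers. The macrophage markers Adgre1 (0.0016) and Csf1r (0.02) did not pass with or without the fold minimum, and Lyz2 was higher by less than 1.5-fold (0.44). Of the neutrophil markers 2 and of the macrophage markers 8 were above the background in both groups, and the part of these cells in the rise of Pfkfb3 was not tested.

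**Figure D2:**
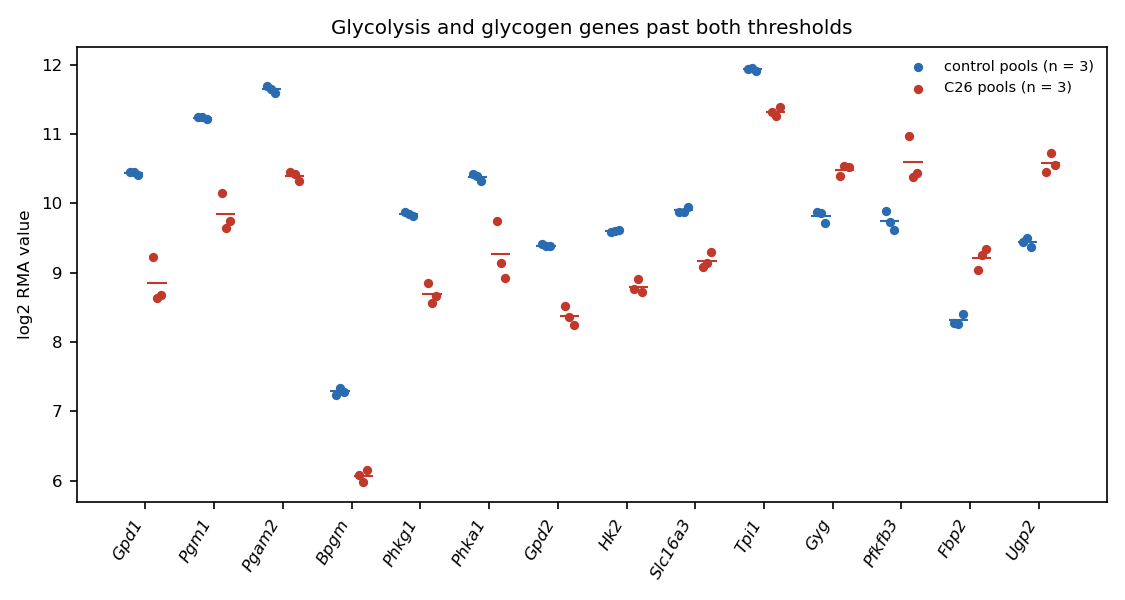
The 14 genes that passed both thresholds, ordered by change, with 1 point per pool on a log2 RMA scale (vertical axis). Control pools are blue, C26 pools are red and lines are group means. In no gene do the pools of the groups overlap, and in Gpd1, Pgm1 and Phka1 the C26 pools are spread more widely than the control pools.

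The genes of lactate handling were mostly lower, and Slc16a3 was the 1 that fell. Slc16a3 encodes MCT4, the transporter by which glycolytic fibers export lactate. Its values were 9.87, 9.88 and 9.95 in control and 9.08, 9.14 and 9.29 in C26 pools, with a log2 change of −0.73 (SE 0.08, adjusted p = 0.00028). Slc16a1, the MCT1 transporter gene that serves lactate uptake in oxidative cells, was in contrast higher by less than 1.5-fold, at 7.64, 7.65 and 7.54 against 7.81, 8.00 and 8.00 (0.33, SE 0.08, adjusted p = 0.0182). Ldha, which encodes the subunit of lactate dehydrogenase typical of fast muscle, was at 12.16, 12.18 and 12.16 against 11.95, 11.80 and 11.82 (−0.31, SE 0.08, adjusted p = 0.0133). The heart type subunit gene Ldhb had values of 8.30, 8.31 and 8.32 against 7.69, 7.75 and 7.84. Its change of −0.55 (SE 0.07, adjusted p = 0.000724) lay just short of the fold minimum, and it passed with quantile normalization (−0.64), with cyclic loess (−0.60), with a replicate block (−0.59) and without C26 replicate 4 (−0.60).

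Genes of glycogen synthesis moved in both directions. Of 6 measured genes 2 rose, 1 fell and 3 did not pass, and with no minimum fold 4 were higher and 1 lower. Their median log2 fold change was 0.38, whereas that of the 5 glycogen breakdown genes was −0.36. Ugp2 makes UDP-glucose, the sugar donor of glycogen. Its log2 values were 9.45, 9.51 and 9.38 in control and 10.46, 10.72 and 10.55 in C26 pools, and it rose by 2.20-fold (log2 fold change 1.14, SE 0.09, adjusted p = 4.68e-05), the largest rise among the 38 genes. Gyg encodes glycogenin, the protein primer on which a glycogen particle starts. It rose from 9.87, 9.86 and 9.71 to 10.39, 10.54 and 10.53 (0.67, SE 0.08, adjusted p = 0.000466). Gbe1, the branching enzyme gene, was higher by less than 1.5-fold, with group means of 8.63 ± 0.05 and 9.09 ± 0.07 (SD, n = 3 pools each, limma log2 fold change 0.46, SE 0.08, adjusted p = 0.00223). Gys1, which encodes the muscle glycogen synthase itself, differed by 0.06 (SE 0.08, adjusted p = 0.639), with control pools at 10.64 to 10.65 and C26 pools at 10.60 to 10.77.

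The phosphoglucomutase gene Pgm1 stood apart from the other genes listed under synthesis. The enzyme interconverts the glucose phosphates that link glycogen to glycolysis and works in both directions. Pgm1 had log2 values of 11.25, 11.25 and 11.22 in control pools, and 10.15, 9.64 and 9.75 in C26 pools. It fell by 2.63-fold (log2 fold change −1.39, SE 0.13, adjusted p = 9.28e-05), next to Gpd1 in size. Pgm2, a relative of Pgm1, was at 5.46 to 5.57 in control and 5.67 to 5.99 in C26 pools (0.30, SE 0.10, adjusted p = 0.0466).

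In glycogen breakdown, a pair of genes for subunits of phosphorylase kinase fell, whereas the muscle phosphorylase gene did not pass. Phkg1, the catalytic subunit of muscle, had log2 values of 9.88, 9.85 and 9.82 in control pools and 8.85, 8.56 and 8.67 in C26 pools, a log2 change of −1.16 (SE 0.09, adjusted p = 4.25e-05). Phka1, the regulatory subunit of muscle, was at 10.43, 10.40 and 10.32 against 9.74, 9.15 and 8.92. The C26 pools of Phka1 differed from each other by up to 0.83 on the log2 scale, and the log2 fold change was −1.11 (SE 0.18, adjusted p = 0.00209). Phkb, the subunit gene shared by muscle and liver, was at 10.24 to 10.32 against 9.90 to 10.18, a difference of −0.26 (SE 0.09, adjusted p = 0.0622). Pygm, the muscle glycogen phosphorylase gene, had values of 12.62, 12.61 and 12.62 in control and 12.52, 12.53 and 12.38 in C26 pools (−0.14, SE 0.08, adjusted p = 0.207). Its brain type relative Pygb was lower by less than 1.5-fold (−0.36, SE 0.09, adjusted p = 0.0152). When variances were not taken as equal Gpd1, Pgm1 and Phka1 did not pass, and neither did Pfkfb3.

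The liver types of the same phosphorylase kinase subunits were higher in C26 muscle by less than 1.5-fold. Phka2 was at 6.19, 5.98 and 6.28 in control and 6.45, 6.57 and 6.66 in C26 pools (log2 fold change 0.42, SE 0.10, adjusted p = 0.0142), against −1.11 for Phka1. Phkg2 was at 5.98, 5.75 and 5.95 against 6.16, 6.35 and 6.46 (0.43, SE 0.10, adjusted p = 0.014), beside −1.16 for Phkg1. These pairs were set side by side after their values had been seen, and the difference within them was not tested.

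Subunits that bring protein phosphatase 1 to the glycogen particle did not pass. Ppp1r3a, the main such subunit of muscle, was at 9.65 to 9.75 in control and 9.61 to 9.65 in C26 pools, a difference of −0.06 (SE 0.07, adjusted p = 0.592). Ppp1r3c differed by 0.16 (SE 0.08, adjusted p = 0.184) and Ppp1r3d by −0.16 (SE 0.14, adjusted p = 0.465). Ppp1r3b, the liver type, lay under the background in both groups, so that no change could be read from it.

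Compared by branch, 23 measured genes of glycolysis, its regulators and lactate held 7 falls and 2 rises, with a median log2 fold change of −0.31, and 15 glycogen genes held 3 falls and 2 rises, with a median of −0.06. These are counts of the branches, beside 4.95% of all probe sets that fell and 5.94% that rose, and no test was made between the branches. The median shift of each C26 pool from the control mean had the same sign in both branches and over all probe sets. This shift was −0.30, −0.37 and −0.35 in C26 pools 1, 3 and 4 for the former, and −0.05, −0.07 and −0.07 for glycogen. Over all probe sets it was −0.04, −0.06 and −0.03, so the glycogen branch as a whole lay near the shift of the arrays. For the glycogen synthesis genes alone it was 0.31, 0.34 and 0.49, and for glycogen breakdown −0.27, −0.44 and −0.38.

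**Figure D3:**
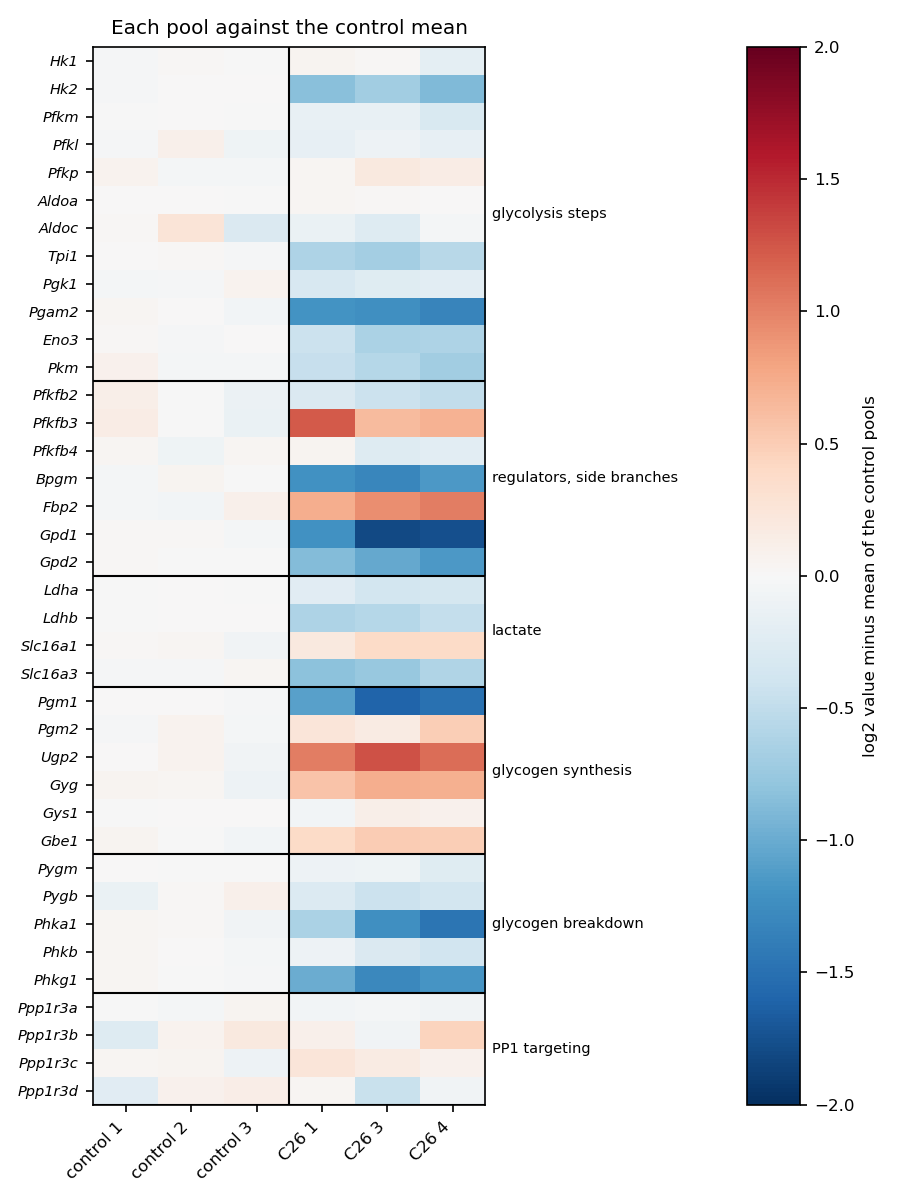
Log2 value of each pool minus the mean of the control pools (colour, from −2 in blue to 2 in red) for the 38 genes in rows, grouped by role, and the 6 pools in columns. Ugp2, Gyg and Gbe1 are red and Pgm1, Phka1 and Phkg1 blue in each C26 pool, and C26 pool 1 is paler than the others in Gpd1, Pgm1 and Phka1.

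Of the 10 genes that fell, C26 pool 1 lay nearest to the control mean in 6, pool 3 in 1 and pool 4 in 3. Of the 4 that rose, pool 1 was nearest in 3 and pool 3 in 1. Pfkfb3 differed from this, since pool 1 had its highest value.

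Muscle isozymes were next compared with the other isozymes of the same step. Of 9 planned pairs 7 could be compared, since the partners of Pgam2 and Eno3 were not analysed here. Of the 6 muscle isozyme genes with a measured partner 2 fell (Hk2 and Slc16a3) and the median log2 fold change was −0.26, and with Pgam2 and Eno3 added 3 of 8 fell and the median was −0.44. Of the 7 partner genes, among which Aldoc lay close to the background, 0 fell and 0 rose, with a median of −0.14. With no minimum fold, 2 of these 7 (Ldhb and Pygb) were lower and 1 (Slc16a1) higher. For each pair the log2 value of the other gene was subtracted from that of the muscle gene on the same array, and the difference was compared between groups with a two-sided exact permutation test over the 6 arrays. With 3 pools a group this test cannot give a p below 0.1. The pairs Pfkm and Pfkl, and Pfkm and Pfkp, share a gene.

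The difference in change was largest for the lactate transporters. The log2 value of Slc16a3 minus that of Slc16a1 was 2.23, 2.23 and 2.41 in the control pools and 1.27, 1.14 and 1.29 in the C26 pools. The groups did not overlap, and the mean of this value was lower in C26 muscle, with a difference of −1.06 (SE 0.08, exact p = 0.1, 0.175 adjusted over the 7 pairs). For Hk2 and Hk1 the values were 3.71, 3.69 and 3.72 against 2.81, 2.99 and 3.01, a difference of −0.77 (SE 0.06, exact p = 0.1, adjusted 0.175). For Pfkm and Pfkp the difference was −0.33 (SE 0.09, exact p = 0.1, adjusted 0.175). The muscle gene was lower relative to its partner in these 3 of the 4 pairs whose groups did not overlap, of 7 pairs compared. For single genes the groups did not overlap in 43.9% of all probe sets, and no such share was taken over pairs. With a smallest exact p of 0.1, no pair could reach an adjusted p of 0.05.

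The fourth pair without overlap was lactate dehydrogenase, in which the difference had the opposite sign. Ldha minus Ldhb was 3.86, 3.87 and 3.84 in control and 4.26, 4.05 and 3.98 in C26 pools, a difference of 0.24 (SE 0.08, exact p = 0.1, adjusted 0.175). The log2 fold change was −0.55 for Ldhb and −0.31 for Ldha, a gene whose mean over the 6 arrays was above 12. The part of signal level in this difference was not tested. The difference within the pair was 0.16 without C26 replicate 1 and 0.41 with quantile normalization. The groups overlapped in the other 3 pairs. The differences were −0.06 (SE 0.07, exact p = 0.4) for Pfkm and Pfkl, 0.17 (SE 0.17, exact p = 0.4) for Aldoa and Aldoc and 0.22 (SE 0.10, exact p = 0.2) for Pygm and Pygb. With quantile normalization these 3 differences were −0.0029, 0.10 and 0.36. Since Aldoc lay close to the background, little can be read from the pair of Aldoa and Aldoc.

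**Figure D4:**
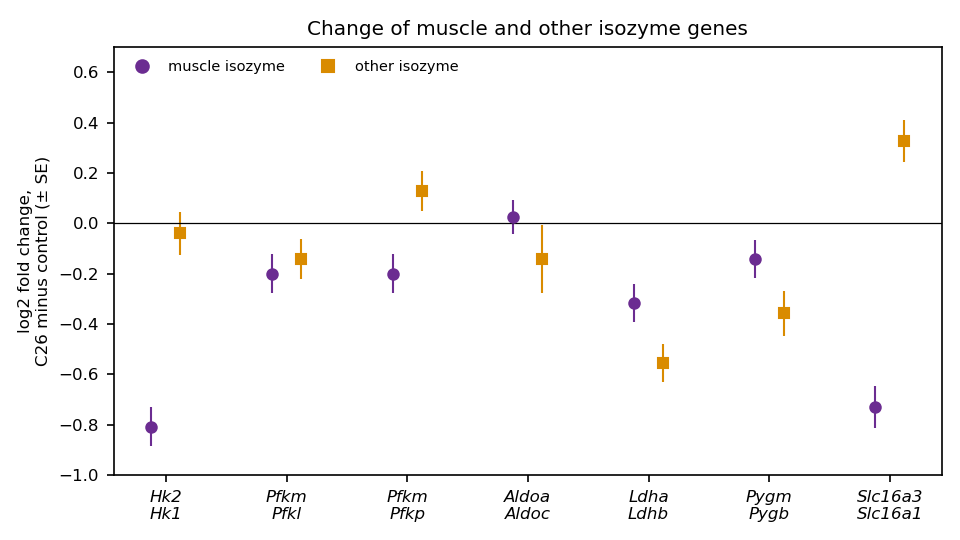
Log2 fold change (C26 minus control, vertical axis, bars show SE) of the muscle isozyme gene (purple circles) and of the other isozyme gene (orange squares) in 7 pairs. The symbols are farthest apart for Slc16a3 and Slc16a1 (−0.73 and 0.33) and for Hk2 and Hk1 (−0.81 and −0.04).

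Markers of fast and slow fibers were read beside these values. None of the 3 fast fiber myosin genes passed, with log2 fold changes of −0.12 for Myh1, −0.21 for Myh2 and −0.13 for Myh4, and summed linear levels of 9762 to 10289 in control and 8716 to 9342 in C26 pools. Of 8 slow fiber markers Myl3, a slow myosin light chain gene, fell (−0.63, SE 0.08), and their summed level was 5934 to 6197 against 5163 to 5246. With no minimum fold 4 of the 8 were lower and 0 higher, the others being Myl2 (−0.53), Tnnt1 (−0.31) and Tnni1 (−0.24). Of the 3 fast fiber myosin genes 0 were lower in this way. All markers of both lists lay above the background. Among the general muscle fiber markers, Mylpf and Pvalb, which are also typical of fast fibers, were lower, with log2 fold changes of −0.70 and −0.51. Actn3, Tnnt3 and Atp2a1, fast fiber genes of the same list, differed by −0.06, −0.09 and −0.03 and did not pass with or without the fold minimum. The part of fiber type in the changes of the glycolysis and glycogen genes was not tested.

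Other genes of the pathway, from a list that the set above did not include, were examined next. Of 58 such genes 52 had a named probe set, of which 3 rose, 5 fell and 44 did not pass, and their median log2 fold change was −0.07. This is 5.77% and 9.62% of the 52, beside 5.94% and 4.95% of all probe sets. Of the 52 genes 45 lay above the background in both groups.

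The largest fall among them was in Prkag3, which encodes the gamma subunit of AMP-activated protein kinase found in glycolytic muscle fibers. Prkag3 had log2 values of 9.23, 9.24 and 9.12 in control pools and 6.96, 6.12 and 6.33 in C26 pools. The fall was 6.63-fold (log2 fold change −2.73, SE 0.19, adjusted p = 2.42e-05), more than that of any of the 38 genes. Among the other subunits of this energy sensor, Prkab2 fell by 0.60 (SE 0.08, adjusted p = 0.000643). Prkaa2 and Prkab1 were higher by 0.34 and 0.32, and Prkag2 was lower (−0.30), each by less than 1.5-fold. Prkaa1 and Prkag1 had log2 fold changes of −0.09 and −0.06, with adjusted p of 0.492 and 0.656. Prkab2 did not pass with median centring (−0.53), without control replicate 1 (−0.57) or without C26 replicate 3 (−0.55). Prkag3 missed the adjusted threshold when variances were not taken as equal.

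Gaa, which digests glycogen inside lysosomes, rose by 2.38-fold, from 9.29, 9.34 and 9.32 to 10.40, 10.69 and 10.61 (log2 fold change 1.25, SE 0.09, adjusted p = 3.04e-05). Gsk3b, a kinase that restrains glycogen synthase, rose from 8.59, 8.49 and 8.58 to 9.33, 9.43 and 9.42 (0.84, SE 0.07, adjusted p = 8.36e-05), and its relative Gsk3a differed by 0.08 (SE 0.08, adjusted p = 0.486). The glycogen phosphatase gene Epm2a, which encodes laforin, fell from a control mean of 7.11 ± 0.09 to a C26 mean of 6.43 ± 0.23 (SD, n = 3 pools each, limma log2 fold change −0.68, SE 0.12, adjusted p = 0.00295). Epm2a did not pass when variances were not taken as equal, or without C26 replicate 4 (−0.55).

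Among genes of glucose entry, the main transporter gene did not pass. Slc2a4, the insulin-responsive transporter GLUT4, was at 10.78, 10.81 and 10.80 in control and 10.66, 10.73 and 10.74 in C26 pools (log2 fold change −0.09, SE 0.07, adjusted p = 0.404). Slc2a12, another sugar transporter gene, fell by 0.69 (SE 0.08, adjusted p = 0.000333). Mlxipl, the glucose-sensing transcription factor ChREBP, fell by 0.62 (SE 0.07, adjusted p = 0.000381), and with median centring it did not pass (−0.56). Adpgk, a glucokinase that uses ADP, had a log2 change of 0.61 (SE 0.11, adjusted p = 0.00343), but it did not pass with quantile normalization (0.57), cyclic loess (0.57) or a replicate block (0.51). It also missed the thresholds without control replicate 2 (0.53), without C26 replicate 3 (0.55) and with unequal variances. Pgp, which removes side products of glycolysis, was lower by 0.56 (SE 0.08), and Hif1a, the hypoxia factor subunit, was higher by 0.32 (SE 0.09), each short of the fold minimum. They were not alone in this, since with no minimum fold 10 of the 52 genes were higher and 13 lower. Ldhd (−0.52), Mpc1 (−0.51), Txnip (0.44) and Pgd (0.41) were among those short of the fold minimum.

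**Figure D5:**
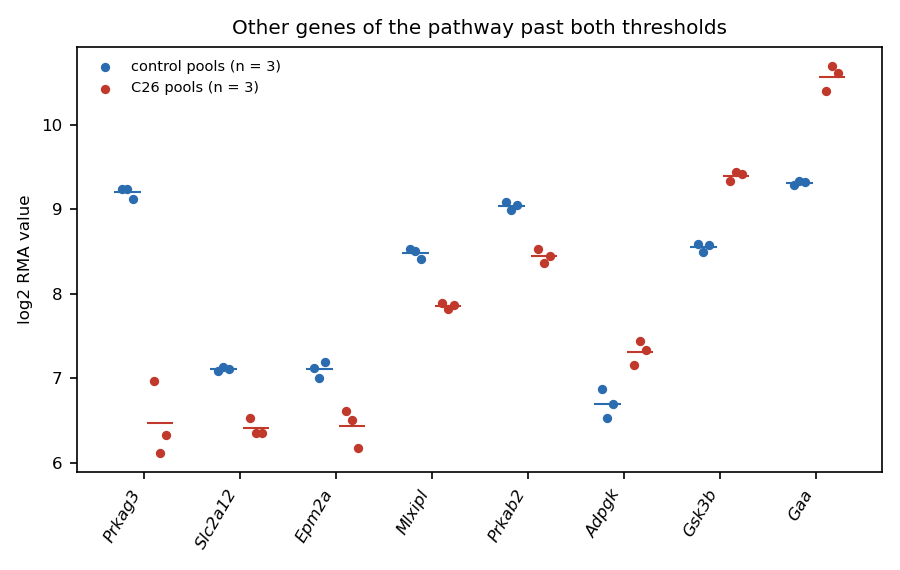
The 8 other genes of the pathway that passed both thresholds, with 1 point per pool on a log2 RMA scale (vertical axis), control pools in blue, C26 pools in red and group means as lines. Prkag3 at the left shows the widest gap (−2.73) and Gaa at the right the largest rise (1.25).

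Promoters of the genes that passed were read for short motifs, to show the sequence beside the change. RefSeq promoters of build GRCm38.p6 (250 bases before to 50 after the start) were found for 13 of the 14 genes, 16 promoters in all, and Gpd1 had no entry. The E-box CANNTG, which myogenic factors can bind, was in 11 of the 16 promoters (68.8%) and in 72.3% of all 32841 promoters of the table. The core ACGTG that hypoxia factors can bind was in 9 of 16 (56.2%) and in 19.6% of all. By gene it was in 8 of 13, and Pfkfb3, Gpd2 and Ugp2 each gave 2 promoters. Those 8 were Pfkfb3, Fbp2, Ugp2 and Gyg, which rose, and Hk2, Gpd2, Slc16a3 and Pgm1, which fell. Tpi1, Pgam2, Bpgm, Phka1 and Phkg1, which also fell, lacked it. Promoters of members that did not pass were not counted apart, and no motif was tested for enrichment. The FoxO core GTAAACA was in 0 of 16 and in 3.65% of all. Both strands were searched, and the letters CACGTG count once as an E-box and on each strand as the hypoxia core. Promoters of 3 genes held 5 E-boxes, the highest count among the 16, and 2.09% of all promoters held 5 or more. A cut of 5 was not planned and was taken from these counts, so it is no test of enrichment. The 3 promoters belong to Pgam2 and Phkg1, which fell, and to Fbp2, which rose. They are shown with that of Pgm1, the largest fall with an entry, which held the hypoxia core at 2 places and no E-box. Capitals mark every match to the 3 motifs, and a match is not a measured binding site.

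Pgam2 (chr11:5803747-5804046, minus strand): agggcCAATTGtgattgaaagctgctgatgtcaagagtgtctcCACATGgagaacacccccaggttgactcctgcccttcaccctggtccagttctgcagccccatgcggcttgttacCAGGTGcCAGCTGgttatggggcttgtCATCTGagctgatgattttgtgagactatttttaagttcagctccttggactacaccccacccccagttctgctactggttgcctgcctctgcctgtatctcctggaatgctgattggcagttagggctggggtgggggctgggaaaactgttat
Phkg1 (chr5:129879039-129879338, minus strand): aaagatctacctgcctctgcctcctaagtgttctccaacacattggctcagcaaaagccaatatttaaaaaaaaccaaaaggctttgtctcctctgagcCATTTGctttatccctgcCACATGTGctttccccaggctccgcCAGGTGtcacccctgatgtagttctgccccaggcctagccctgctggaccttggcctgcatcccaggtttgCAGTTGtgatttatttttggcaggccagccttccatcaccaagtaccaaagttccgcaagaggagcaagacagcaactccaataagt
Fbp2 (chr13:62858351-62858650, minus strand): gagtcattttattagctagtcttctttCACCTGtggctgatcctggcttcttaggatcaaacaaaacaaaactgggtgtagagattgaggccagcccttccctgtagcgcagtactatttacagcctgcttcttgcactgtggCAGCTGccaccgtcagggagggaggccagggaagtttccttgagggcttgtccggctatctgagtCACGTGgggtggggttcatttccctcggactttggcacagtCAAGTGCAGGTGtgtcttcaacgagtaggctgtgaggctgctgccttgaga
Pgm1 (chr4:99929201-99929500, plus strand): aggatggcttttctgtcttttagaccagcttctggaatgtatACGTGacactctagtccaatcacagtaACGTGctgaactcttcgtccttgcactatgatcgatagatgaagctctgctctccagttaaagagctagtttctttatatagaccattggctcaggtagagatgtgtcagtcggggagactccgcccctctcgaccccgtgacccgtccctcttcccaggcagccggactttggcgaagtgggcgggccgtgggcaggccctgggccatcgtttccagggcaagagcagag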

How the data were processed

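RNA was pooled per group, labelled and hybridized to 6 whole-transcript arrays. The deposited values are on a log2 scale, and per the submitters' notes and the study's methods they come from RMA, run by the authors in GenePattern using version 13 of the custom Brainarray CDF. RMA corrects background, equalizes arrays by quantiles and summarizes probes per gene. Array values can compress differences near the top and bottom of the range. The sources used here give no genome build for the CDF. Groups came from the sample type in the labels.

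The deposited values were used as they stand. Probe sets were named through the platform's gene identifiers, with symbols updated from a RefSeq gene table. Of 21212 probe sets, 18782 had 1 symbol of their own, and all were tested. The groups were tested two-sided with lmFit and eBayes of limma (version 3.58.1, under R 4.3.3), and p-values were adjusted over all probe sets by the Benjamini-Hochberg method. Isozyme pairs were compared by exact permutation in Python 3.11.15 with SciPy 1.17.1. The limma fit was tested on simulated data. Arrays give no count depth, and their number limits the precision.

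Named in full were genes past the thresholds, both genes of each isozyme pair and the other pathway genes that passed. Other genes are named for context. Members and lists were chosen with earlier results of these data known. The alternatives were other tests, thresholds and scalings, a filter on dim probe sets, a replicate block and leaving out each array. The planned comparison of isozyme protein sequences was not made.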

Additional observations from a re-analysis of the deposited data

How the results depend on the processing

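The 14 calls kept their direction under every alternative, and between 10 and 14 of them stayed past the thresholds. The lowest number was given by a test with unequal variances, which called 10 of them and, over all probe sets, 760 higher and 621 lower, beside 1261 and 1049 with limma. By the methods' t-test with equal variances 13 of the 14 passed. With no minimum fold 7 of the 38 genes were higher and 17 lower, 10 and 13 of the other pathway genes, and 3041 and 3344 of all probe sets. Of the other pathway genes 3 fell by a test with unequal variances and 3 with median centring. The median of the glycolytic steps (−0.23) was −0.25 among probe sets above the median level, −0.16 with median centring, −0.19 with quantile normalization and −0.20 with cyclic loess. These shifts were larger than the spread of that median between the C26 pools (−0.24, −0.25 and −0.26). Median centring, quantile normalization and cyclic loess moved the median of all probe sets from −0.05 to 0.02, −0.01 and −0.00050.

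Leaving out each array in turn gave 4 rises and 9 to 12 falls among the 38 genes, 2 to 3 rises and 4 to 6 falls among the other pathway genes, and 1196 to 1391 rises and 992 to 1155 falls over all. The median of the glycolytic steps was then −0.25 to −0.22. The difference between the isozymes of each of the 7 pairs kept its sign in all of these. Hk1 changed sign with median centring (0.025), with a replicate block (0.047) and without C26 replicate 4 (0.035, the range over left-out arrays being −0.085 to 0.035), and Ppp1r3a with median centring (0.0060). Neither had passed.

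Replicate numbers 1 and 3 occur in both groups, but deviations of same-numbered pools correlated at −0.06 and −0.06, so the numbers were not taken to pair the pools. With the replicate block 4 of the 38 genes rose and 11 fell, 2 and 7 of the other genes did, and 1235 and 1069 of all probe sets. Control pool 2 and C26 pool 4 have no partner of the same number. This fit therefore rests on pools 1 and 3 of each group and leaves 1 residual degree of freedom. The median of the glycolytic steps was −0.21 with the block.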
